A study of Mus musculus with 2 samples.

Results

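The genes described here are the amino acid transporters of the plasma membrane and lysosome that the array represents in the solute carrier families Slc1, Slc3, Slc6, Slc7, Slc36, Slc38 and Slc43. The rule takes every probe whose gene name falls in one of these families and which is no control, and it uses no measured value, although the families were picked with earlier results of these data known. The rule found 55 genes with 96 probes among 27745 gene names and 41174 probes on the array. A few members of the Slc6 family carry creatine, taurine or monoamine transmitters rather than amino acids of proteins, and they were kept because the rule is by family.

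Transcripts were compared between mouse embryonic fibroblasts (MEFs, connective tissue cells grown from embryos) from LATS2-/- mice (KO) and from LATS2+/+ mice (WT), both of the strain C57BL/6J and neither treated. LATS2 is a kinase of the Hippo pathway, which restrains the transcriptional coactivators YAP and TAZ. Both kinds of MEFs were grown in a standard medium with serum, and neither the age of the embryos nor the number of animals or cultures behind each RNA was given in the sources used here. The series has 2 Agilent arrays of long oligonucleotide probes: KO RNA in Cy5 (red) with WT RNA in Cy3 (green) on the first, and the dyes exchanged on the second. The labels name no separate replicates, so the pair counts as 1 replicate of each genotype, and no difference between genotypes has a replicate check.

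The genotype field of the labels is spelled LAT2-/- and LAT2+/+, whereas the titles and design text have LATS2. LAT2 is also a common name of the protein of Slc7a8, which is among the transporters, so its value is given below beside the targeted gene as a check. Most Lats2 probes go against the label: on 3 of its 4 probes the mean log2 ratio of KO over WT was 0.56, 0.57 and 0.63, and on the remaining probe it was -0.35. The 3 higher probes lie close together on chromosome 14, between positions 56644080 and 56645305 (NCBI36/mm8), and 2 of them overlap, while the lower probe lies at 56676512 to 56676571. Whether any of them lies in the deleted part was not analysed here. Slc7a8 was at 0.53, with 0.49 on the array with KO in Cy5 and 0.58 on the array with KO in Cy3. The samples are therefore named by their label ("labelled KO", "labelled WT") in what follows, and every direction rests on the labels.

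Amino acids cross membranes through families of carriers that differ in the ions they couple to and in the side chains they accept. Slc1 proteins use the sodium gradient to take up glutamate and aspartate or small neutral amino acids. Slc6 proteins couple sodium and chloride to the uptake of glycine, proline, transmitters and related solutes. Most Slc7 carriers reach the membrane only as partners of a heavy chain, Slc3a1 or Slc3a2, and exchange one amino acid for another. Slc38 proteins bring in glutamine, alanine and other small neutral amino acids, Slc36 proteins move small amino acids together with protons, and Slc43 proteins include facilitators for large neutral amino acids. In fibroblasts, scarcity of amino acids is sensed by the kinase Gcn2 (Eif2ak4), which raises translation of the transcription factor Atf4, and Atf4 binds amino acid response elements in several transporter and biosynthesis genes.

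Because several transporter genes are known to be driven through such elements, the promoter windows of the members were searched for the element in its strict letters, TGATGCAA, and in a looser form with 1 free base, TGATGNAA, on both strands. The windows, from 250 bases before to 50 bases after each annotated start, are from RefSeq on the mouse build GRCm38.p6, and 36 of the 55 members had at least 1. The strict form was found in 3 of these 36 (8.33%) and in 1.03% of all 27025 genes with a window. The looser form was found in the same 3 members and in 4.51% of all genes. The 3 members are Slc1a4 (chr11:20332664-20332963, minus strand), Slc7a7 (chr14:54417895-54418194, minus strand, 1 of 2 overlapping windows that hold the element among the 5 of that gene) and Slc7a11 (chr3:50443564-50443863, minus strand). They are shown 5′ to 3′ with the strict form, or its reverse complement TTGCATCA, in capitals.
Slc1a4: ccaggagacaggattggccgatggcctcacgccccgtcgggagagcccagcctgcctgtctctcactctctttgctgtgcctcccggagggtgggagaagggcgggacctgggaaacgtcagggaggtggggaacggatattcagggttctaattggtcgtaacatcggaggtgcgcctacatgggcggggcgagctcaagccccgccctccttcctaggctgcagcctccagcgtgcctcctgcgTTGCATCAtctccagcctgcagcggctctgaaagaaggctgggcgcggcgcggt
Slc7a7: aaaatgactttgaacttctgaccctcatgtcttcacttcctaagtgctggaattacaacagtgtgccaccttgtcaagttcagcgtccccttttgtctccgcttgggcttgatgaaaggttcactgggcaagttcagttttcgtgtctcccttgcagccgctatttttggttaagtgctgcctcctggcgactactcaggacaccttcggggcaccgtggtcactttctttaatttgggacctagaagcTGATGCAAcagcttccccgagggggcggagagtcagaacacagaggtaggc
Slc7a11: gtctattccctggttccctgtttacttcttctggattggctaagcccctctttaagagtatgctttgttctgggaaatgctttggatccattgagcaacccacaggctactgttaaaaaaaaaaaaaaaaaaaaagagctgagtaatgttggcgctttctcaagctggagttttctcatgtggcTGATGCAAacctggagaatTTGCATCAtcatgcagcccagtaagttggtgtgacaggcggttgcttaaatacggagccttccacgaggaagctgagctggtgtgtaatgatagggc
Slc7a11 holds the element once on each strand, starting 66 and 47 bases before the start site. In the windows printed for Slc1a4 and Slc7a7 the match runs across the start itself, beginning 4 bases and 1 base before it. In the second Slc7a7 window the same element begins 243 bases before another annotated start.

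The other motif searched was GGAATG, the letters bound by the TEAD factors through which YAP and TAZ act, and it is short enough to be common: 16.6% of all genes with a window held it on either strand, against 10 of 36 members (27.8%). The window of Slc1a6 (chr10:78780246-78780545, plus strand) is shown because this gene had the largest difference of all members. The capitals mark CATTCC, the reverse complement of the motif. The window of Slc38a2 (chr15:96699679-96699978, minus strand), the system A carrier described below, holds no match to the response element and is shown without capitals.
Slc1a6: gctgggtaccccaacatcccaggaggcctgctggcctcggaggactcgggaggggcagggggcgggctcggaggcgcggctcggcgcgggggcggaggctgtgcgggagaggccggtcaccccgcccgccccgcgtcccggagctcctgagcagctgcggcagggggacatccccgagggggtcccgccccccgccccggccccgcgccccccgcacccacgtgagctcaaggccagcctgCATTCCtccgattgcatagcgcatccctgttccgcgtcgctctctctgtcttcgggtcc
Slc38a2: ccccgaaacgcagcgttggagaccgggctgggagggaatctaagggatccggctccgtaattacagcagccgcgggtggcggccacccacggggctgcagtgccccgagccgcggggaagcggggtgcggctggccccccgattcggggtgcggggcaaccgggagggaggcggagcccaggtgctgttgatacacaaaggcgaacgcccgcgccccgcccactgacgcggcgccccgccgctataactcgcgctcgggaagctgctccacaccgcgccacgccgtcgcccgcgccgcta
A match is a description of the letters in these windows, and the absence of one says nothing of elements elsewhere in a gene.

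The cell type was checked next. Of 10 fibroblast markers, 9 were measured, and 8 of these, among them the collagens Col1a1, Col1a2 and Col3a1 and the fibronectin gene Fn1, were well above background in both RNAs. Their log2 ratios ran from -0.56 (Col1a1) to 0.90 (Fn1), and 5 of the 8 were below 0 on both arrays. The ninth, Vim, passed the background test on both arrays in 1 RNA only and was called 1.5-fold lower, at -0.89 (-0.80 and -0.97). Of 16 markers of epithelium, endothelium, leukocytes, neurons and muscle, 14 were measured, and 2 (Cd68 and Tubb3) were above background, with log2 ratios of 0.14 and -0.11. The part of these marker differences in the transporter values was not tested. In bulk RNA, fewer cells of a kind and less RNA per cell cannot be told apart.

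Of the 55 members, 25 were well above background on both arrays in both RNAs, a further 5 on both arrays in 1 RNA only, and 25 on both arrays in neither. A member was called when its ratio reached the stated fold on both arrays with the same sign and its probe passed Feature Extraction's test for signal well above background, on both arrays, in the RNA where it was higher. At 2-fold, 1 member was higher in the RNA labelled KO and 5 were lower. These are 1.82% and 9.09% of the 55, where 1.7% and 1.49% of all 27579 genes measured were called in the same directions. At 1.5-fold, 1 member was higher and 7 lower (1.82% and 12.7%), where the shares of all genes were 4.06% and 4.12%. Restricted to genes well above background in both RNAs, 4% of the 25 members were 2-fold higher and 20% lower, against 2.81% and 2.66% of 14723 genes, and at 1.5-fold 4% and 28% against 6.86% and 7.4%. Thus the share of lower members lay above the background at both folds, and the share of higher members lay near it at 2-fold and below it at 1.5-fold. With Feature Extraction's own ratios in place of the normexp and loess values the split was 3 higher to 6 lower at 2-fold and 6 higher to 9 lower at 1.5-fold. The shares of all genes were not counted with these ratios, so this split has no background beside it.

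The members that reached 2-fold lower were Slc1a3, Slc1a5, Slc6a9, Slc38a2 and Slc43a3, and Slc7a5 and Slc43a1 joined them at 1.5-fold. The member that reached 2-fold higher was Slc1a6. With median centring in place of loess Slc1a5 and Slc7a5 were not called even at 1.5-fold, and the other 5 lower members were. The means of both arrays for these 2 genes were then -1.16 and -0.83, but a call needs the fold on each array. The median log2 ratio of all 55 members was -0.03 and that of the 25 above background was -0.13, where the medians over all genes were -0.0003 and -0.007. Of the 25, 15 were below 0 on both arrays and 8 above 0 on both. Of all 14723 genes above background in both RNAs, 6166 were below 0 on both arrays and 5860 above. The SD of the mean of both arrays was 0.0929 on the log2 scale over 95 member probes, and 0.0942 over all probes. It measures dye and hybridisation error, not the spread between cultures.

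**Figure D1:**
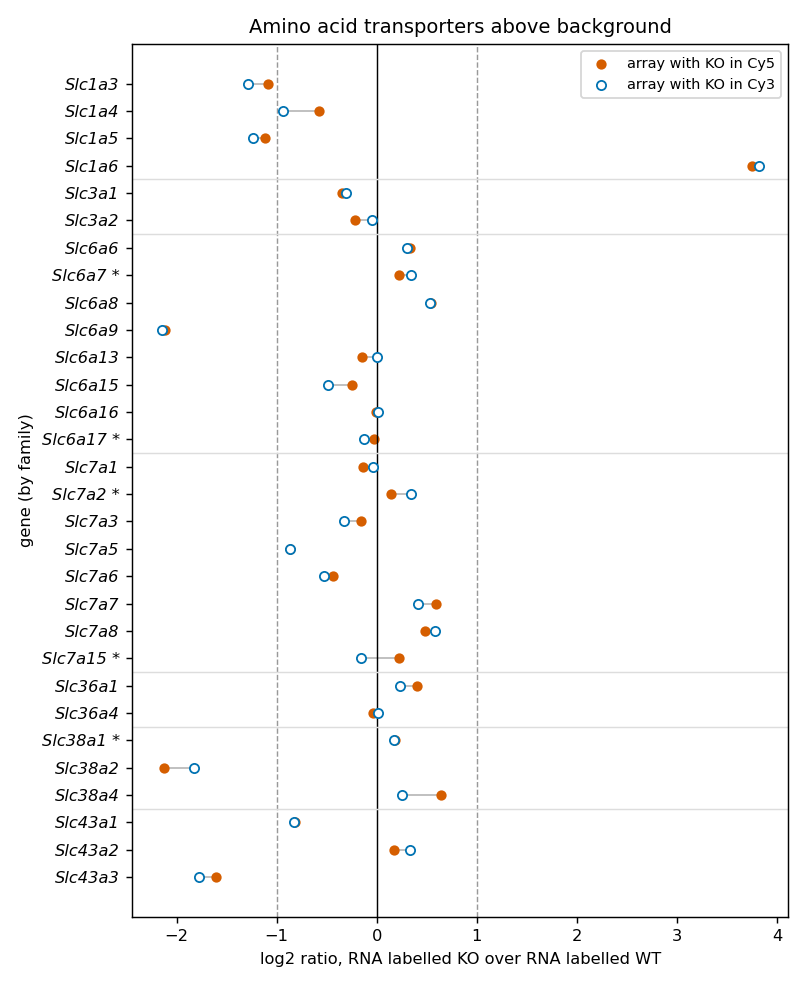
Log2 ratio of the RNA labelled KO over the RNA labelled WT (x axis) for the 30 members above background on both arrays in at least 1 RNA (y axis, by family). Filled points are the array with KO in Cy5, open points the array with KO in Cy3, and dashed lines mark 2-fold. An asterisk marks the 5 genes above background on both arrays in 1 RNA only. Slc1a6 stands alone on the right at 3.78, and Slc6a9, Slc38a2 and Slc43a3 lie farthest to the left, between -2.13 and -1.69.

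The glutamate and neutral amino acid carriers of the Slc1 family held both the member with the largest increase and 2 of the 5 that were 2-fold lower. Slc1a6 encodes a glutamate transporter best known from Purkinje cells of the cerebellum. Its normalised signal, on the log2 scale of the array, was 11.93 and 12 in the RNA labelled KO and 8.18 and 8.18 in the RNA labelled WT. Both KO values were far above both WT values. The log2 ratio was 3.75 and 3.82 on the single arrays, with a mean of 3.78, or 13.8-fold, which is at percentile 99.9 of the genes above background in both RNAs. The gene has 1 probe (chr10:78217831-78217890, NCBI36/mm8, the build of the probe coordinates throughout), so no other probe bears on this value.

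Slc1a3, the glutamate transporter known from astrocytes, went the other way. Its signal was 6.98 and 7.02 in the RNA labelled KO and 8.07 and 8.31 in the RNA labelled WT. The log2 ratio was -1.19 (-1.09 and -1.28), or 2.28-fold lower. This value rests on 1 of 3 probes (chr15:8581451-8581510), which matches the reference transcript. The other 2 probes carry accessions of cDNA clones and gave -0.10 and 0.01, and neither passed the background test on both arrays in both RNAs. With the mean over all probes, or the probe of median ratio, Slc1a3 was not called. Its ratio also depends on the background step, and was -1.55 with an offset of 10 and -1.88 with Feature Extraction's own ratio.

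Slc1a5, the main carrier of glutamine and other neutral amino acids in proliferating cells, had a signal of 9.89 and 9.95 in the RNA labelled KO and 11.01 and 11.18 in the RNA labelled WT. Its log2 ratio was -1.18 (-1.12 and -1.24), which left 44.2% of the WT level. Slc1a4, its relative that exchanges alanine, serine and cysteine, was lower on both arrays, by -0.58 and -0.93, with a mean of -0.76. The first value missed the 1.5-fold limit, 0.585 on the log2 scale, so Slc1a4 was not called. Its second probe gave the same mean of -0.76 from -0.68 and -0.84. Of the 3 members whose window holds the response element, it was the one below 0 on both arrays and above background. The remaining carriers of the family, Slc1a1, Slc1a2 and Slc1a7, gave no signal above background in either RNA.

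**Figure D2:**
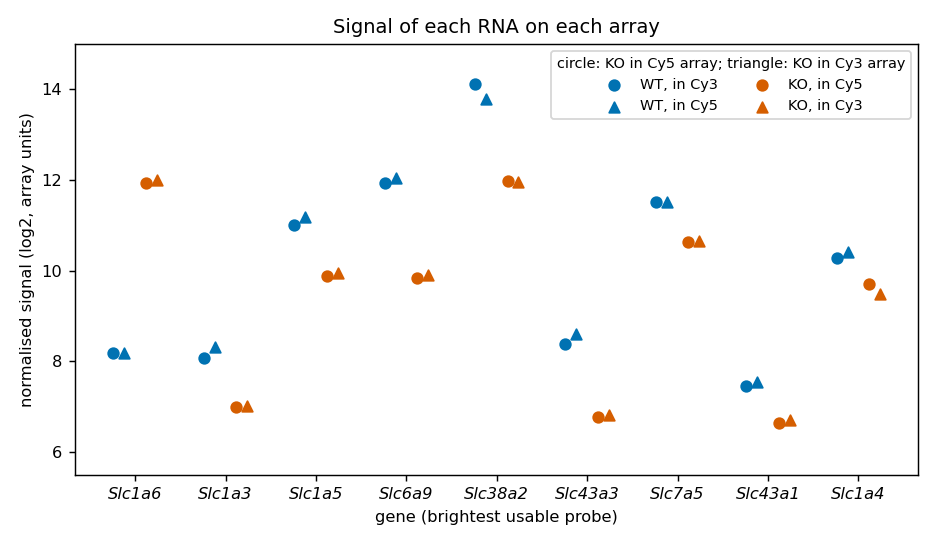
Normalised signal (y axis, log2 array units) of the 8 called members and Slc1a4 (x axis) in each RNA on each array. Blue marks the RNA labelled WT and orange the RNA labelled KO, circles the array with KO in Cy5 and triangles the array with KO in Cy3. The called members were chosen by their ratios on both arrays, so the gap between the RNAs largely follows from that choice. Slc1a6 is the one gene in which the KO values are on top.

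Slc38a2, the system A carrier of small neutral amino acids that cells raise when amino acids are scarce, was lower on every probe. The signal of its brightest probe (chr15:96516094-96516153) was 11.98 and 11.96 in the RNA labelled KO and 14.11 and 13.78 in the RNA labelled WT. The log2 ratio was -1.97 (-2.12 and -1.82), so that 25.5% of the WT level remained. The other 3 probes gave -1.83, -2.20 and -0.92, and all 4 passed the background test in both RNAs. The least changed of them (-0.82 and -1.02) reached 1.5-fold but not 2-fold.

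Its neighbours on chromosome 15 did not share this. Slc38a4, also a system A carrier, is represented 307 kb away and was at 0.44, with 0.64 and 0.25 on the single arrays and 0.33 on its second probe. Slc38a1, the third system A carrier, lies 112 kb to the other side. It passed the background test in the RNA labelled KO only, on 1 of its 6 probes, and was at least 1.105-fold higher there. Neither was called, and Slc38a3 and Slc38a5, which carry glutamine in both directions, gave no signal above background. With Feature Extraction's own ratio Slc38a1 was called 2-fold higher.

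Slc6a9, the glycine transporter found on glia and many dividing cells, had the lowest ratio of all members. Its signal was 9.83 and 9.90 in the RNA labelled KO and 11.94 and 12.04 in the RNA labelled WT. The log2 ratio of its 1 probe (chr4:117367162-117367221) was -2.11 and -2.14, with a mean of -2.13, or 22.9% of the WT level. Of the other 18 members of the family, 5 were well above background in both RNAs. Slc6a8, the creatine transporter, was at 0.54 on the mean of 0.54 and 0.53, and Slc6a6, the taurine transporter, at 0.32 (0.34 and 0.30). The brightest Slc6a6 probe carried an outlier flag on the array with KO in Cy5 and gave 0.26 on the other array. Slc6a15, a carrier of branched-chain amino acids and proline, was at -0.37 (-0.25 and -0.49). Slc6a13 and Slc6a16 lay at -0.07 and 0.00. Slc6a7, the proline transporter, was above background in the RNA labelled KO only. It was at least 1.22-fold higher there on its brighter probe and at least 1.13-fold on the other (0.40 and 0.01 on the single arrays). With Feature Extraction's own ratio it was called 2-fold higher, at 1.69. The carriers of noradrenaline, dopamine and serotonin (Slc6a2, Slc6a3 and Slc6a4) and the neuronal glycine carrier Slc6a5 gave no signal above background, and the same held for Slc6a11, Slc6a12, Slc6a14, Slc6a18, Slc6a19 and Slc6a20. Slc6a17, a vesicular carrier of neurons, passed the background test on both arrays in 1 RNA only and was at -0.08.

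The Slc7 and Slc3 families together make the heterodimeric exchangers. The heavy chain Slc3a2 had a log2 ratio of -0.13 (-0.22 and -0.05), and its second probe gave -0.12. The other heavy chain, Slc3a1, was at -0.33 (-0.35 and -0.30), but at -1.03 and called 1.5-fold lower with Feature Extraction's own ratio. Among the light chains, Slc7a5, the partner of Slc3a2 that imports leucine and other large neutral amino acids, was lower. Its signal was 10.64 and 10.65 in the RNA labelled KO and 11.51 and 11.52 in the RNA labelled WT, and its log2 ratio of -0.87 (-0.87 and -0.86) corresponds to 54.9% of the WT level. The heavy chain and this light chain thus differed, with signals of Slc3a2 of 13.62 and 13.76 in the RNA labelled KO and 13.84 and 13.81 in the RNA labelled WT.

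The other light chains ran in both directions. Slc7a6, which exchanges arginine for neutral amino acids and glutamine, was at -0.48 (-0.43 and -0.53), with -0.32 on its second detected probe. Slc7a7, which has the same kind of activity, was at 0.50 (0.59 and 0.42), and Slc7a8, an exchanger of neutral amino acids, at 0.53. Slc7a7 and Slc7a8 lie 352 kb apart on chromosome 14 by their probes. Of the cationic amino acid transporters, which need no heavy chain, Slc7a1 was at -0.09 and Slc7a3 at -0.24. Slc7a2 was above background in the RNA labelled KO only, where it was at least 1.19-fold higher. None of these was called, although with Feature Extraction's own ratio Slc7a2 (1.74), Slc7a7 and Slc7a8 were called 1.5-fold higher. Slc7a15 passed the background test on both arrays in 1 RNA only, and its ratios of 0.22 and -0.16 differed in sign between the arrays. Slc7a4, Slc7a9, Slc7a10, Slc7a12, Slc7a13 and Slc7a14 did not pass it on both arrays in either RNA. Slc7a11, the cystine and glutamate exchanger and a known Atf4 target with an element on each strand of its promoter window, did not pass the background test in either RNA on any of its 4 probes.

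**Figure D3:**
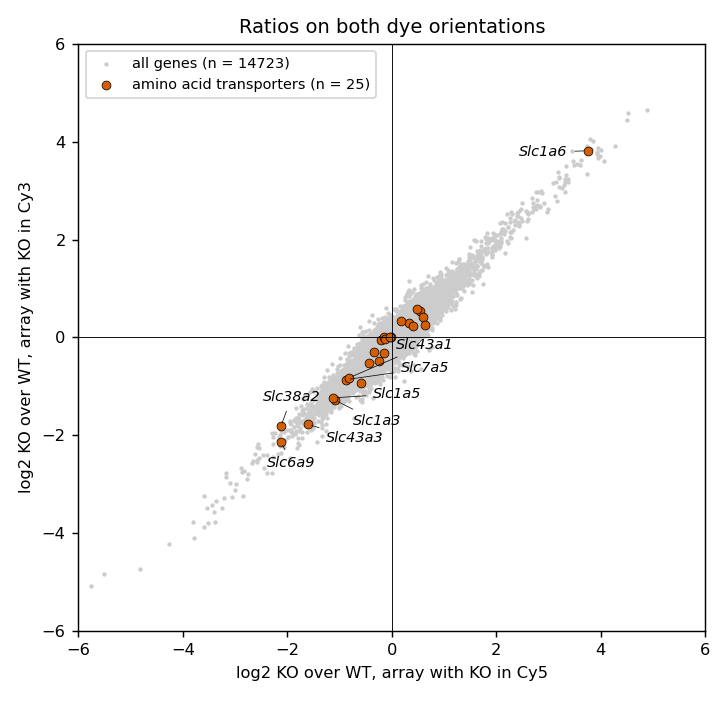
Log2 ratio of the RNA labelled KO over the RNA labelled WT on the array with KO in Cy5 (x axis) against the array with KO in Cy3 (y axis) for 14723 genes above background in both RNAs (grey) and the 25 members among them (orange). The 8 called members are named and lie along the diagonal, with Slc1a6 at the upper right and the 7 lower members at the lower left.

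In the Slc43 family 2 of the 3 members were lower. Slc43a3, which has been described as a purine nucleobase carrier despite its place in this family, had a signal of 6.78 and 6.83 in the RNA labelled KO and 8.38 and 8.61 in the RNA labelled WT. Its log2 ratio was -1.69 (-1.60 and -1.78), or 3.23-fold lower. Slc43a1, a facilitator of large neutral amino acids, had 6.64 and 6.72 against 7.46 and 7.54, and a log2 ratio of -0.82 (-0.81 and -0.83). Their probes lie 94.7 kb apart on chromosome 2. Slc43a2, a related facilitator on chromosome 11, was at 0.26 (0.18 and 0.33), while its second probe, not above background, gave -0.02. Both lower genes are dim in the RNA labelled KO, and their ratios depend on the background step: with Feature Extraction's own ratio they were -2.57 for Slc43a3 and -1.74 for Slc43a1.

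The proton-coupled Slc36 carriers gave no call. Slc36a1, which exports small amino acids from lysosomes, was at 0.32 (0.40 and 0.23) on its brighter probe and at -0.05 on a probe not above background. Slc36a4 was at -0.01. Slc36a2 and Slc36a3, which lie side by side next to Slc36a1 on chromosome 11, did not pass the background test on both arrays in either RNA. Over the 25 members that passed on both arrays in neither RNA, log2 ratios ran from -0.14 to 0.13. Of these, Slc7a4, Slc7a9 and Slc36a3 passed in the RNA labelled KO on 1 array.

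Of the 7 members that were at least 1.5-fold lower, 4 had a promoter window, and none of these held the response element in either form. Of these 4, Slc6a9, in 1 of its windows, and Slc43a1 held the TEAD letters, as did the window of Slc1a6. Of the members above background and below 1.5-fold, 13 had a window and 2 held the element, Slc1a4 and Slc7a7, whose log2 ratios had opposite signs. Among the same 13, the TEAD letters were held by 4: Slc6a13, Slc7a7, Slc36a1 and Slc43a2.

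Amino acid sensing genes were then compared in the same RNAs. Of 20 listed, 18 were measured and all 18 were above background in both RNAs. At 2-fold, 1 was higher and 4 were lower, and at 1.5-fold 1 was higher and 6 lower, with a median log2 ratio of -0.26. Among all 14723 genes above background in both RNAs, 2.81% were called higher and 2.66% lower at 2-fold. At 1.5-fold these shares were 6.86% and 7.4%. Atf4, the transcription factor itself, was lower by more than 1.5-fold on each array, at -1.03 and -0.59, with a mean of -0.81. The 4 genes that were 2-fold lower are known as targets or partners of Atf4. Whether their ratios follow from that of Atf4 was not tested, and the list was not sorted by such targets. Trib3, a pseudokinase induced by amino acid stress, was at -1.94 and the related factor Atf5 at -1.75. The stress protein gene Nupr1 was at -1.57 and the glutathione-degrading enzyme gene Chac1 at -1.17. Sesn3, of the leucine-sensing sestrin family, was at -0.84, while Sesn1 and Sesn2, which were not called, were at -0.31 and -0.22. Ddit3, another target of Atf4, was at -0.30 (-0.34 and -0.26) and Eif4ebp1 at -0.35, and neither was called. Eif2ak4, the kinase upstream, was at 0.14. Rragd, a GTPase that recruits mTORC1 to lysosomes, was the 1 higher gene, at 1.15. With median centring in place of loess 1 gene of the list was 2-fold lower, and with the mean over all probes or the probe of median ratio 0 were 2-fold higher.

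Enzymes of amino acid metabolism were measured for 27 of 28 genes, with 24 above background in both RNAs. At 2-fold, 2 were higher and 1 lower, and at 1.5-fold 2 were higher and 5 lower, with a median log2 ratio of -0.05. Among all genes above background in both RNAs the shares were 2.81% and 2.66% at 2-fold, and 6.86% and 7.4% at 1.5-fold. The 5 lower genes were Gpt2, an alanine transaminase, at -1.15, Pycr1, of proline synthesis, at -0.96, Asns, asparagine synthetase and a known Atf4 target, at -0.84, Bcat1, a branched-chain transaminase, at -0.83, and Psat1, of serine synthesis, at -0.75. The higher genes were Glul, glutamine synthetase, at 1.31 (1.55 and 1.08) and Asl, of arginine synthesis, at 1.17. Phgdh, the first enzyme of serine synthesis, was at -0.01, with -0.20 and 0.19 on the single arrays. With median centring 0 enzymes were called at 2-fold in either direction, with the mean over all probes or the probe of median ratio 1 was 2-fold higher, and with Feature Extraction's own ratio or an offset of 10, 2 were 2-fold lower.

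A list of 22 other genes of amino acid and peptide transport, most of them carriers of mitochondria, vesicles or lysosomes, had 15 above background in both RNAs. On both arrays, none was lower by 1.5-fold and 3 were higher by 1.5-fold, 1 of them by 2-fold: Slc25a13, the mitochondrial aspartate and glutamate carrier, at 2.32, Arl6ip5, which binds a glutamate transporter, at 0.83, and Slc15a4, a lysosomal carrier of histidine and peptides, at 0.78. Among all genes above background in both RNAs, 2.81% were 2-fold higher, 6.86% 1.5-fold higher and 7.4% 1.5-fold lower. The median over all 22 was 0.02. Slc16a10, an aromatic amino acid facilitator of the plasma membrane outside the families above, was at -0.60 (-0.57 and -0.64), a mean of 1.52-fold lower that missed the limit on 1 array. With Feature Extraction's own ratio 2 genes of this list were called 2-fold lower. The median was negative in the sensing genes and close to 0 in the enzymes and other carriers, and no test was made between these lists.

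**Figure D4:**
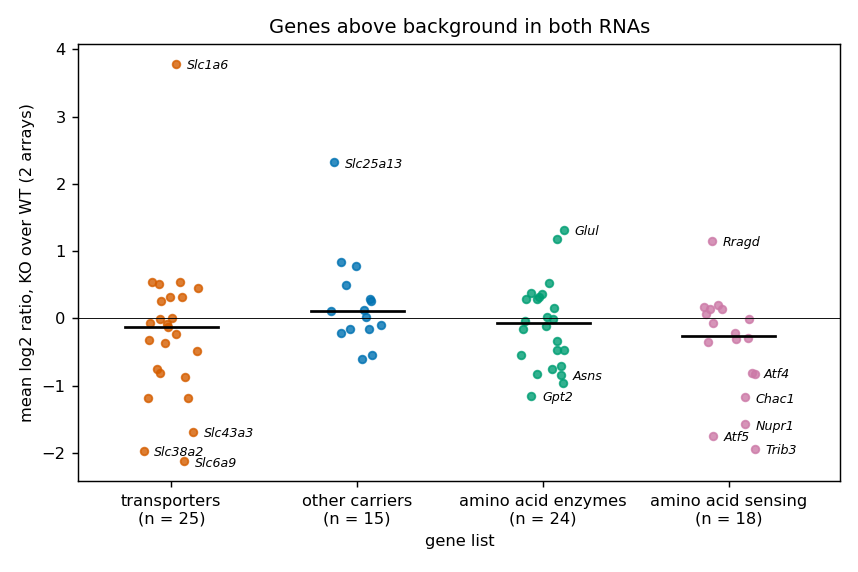
Mean log2 ratio of both arrays (y axis) of the genes above background in both RNAs in the transporter families, other carriers, amino acid enzymes and amino acid sensing genes (x axis, with the number of genes). Each point is a gene, horizontal bars are medians and points are spread sideways for clarity. The sensing list has 4 genes below -1, and Slc1a6 and Slc25a13 are the points farthest above 0.

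**Figure D5:**
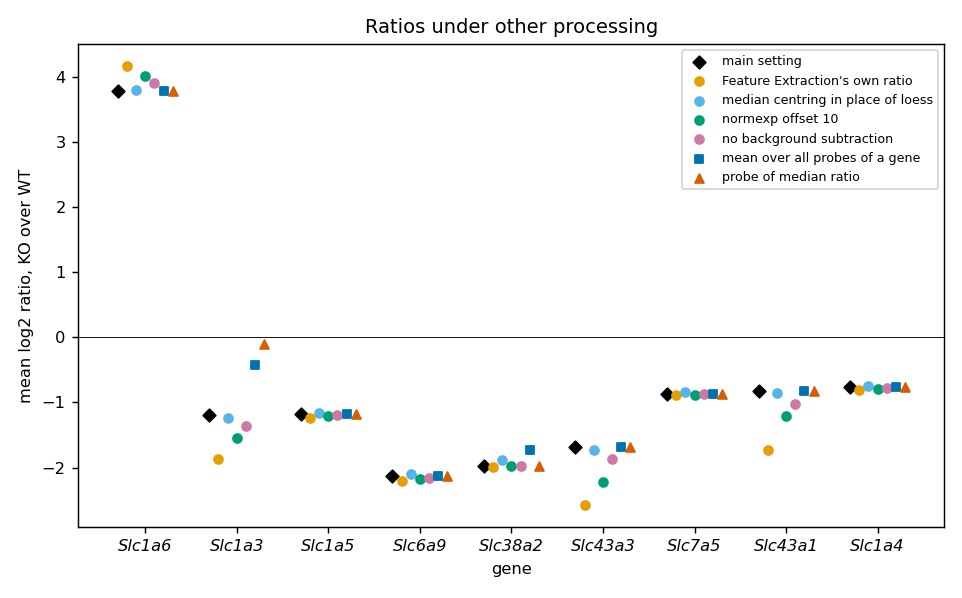
Mean log2 ratio of both arrays (y axis) for the 8 called members and Slc1a4 (x axis) under the main setting (diamonds) and 6 other ways of processing. Slc6a9, Slc1a5, Slc7a5 and Slc1a4 stay within a narrow band. Slc38a2 moves from -1.97 to -1.73 with the mean over all probes. Slc1a6 moves from 3.78 to 4.17 with Feature Extraction's own ratio and to 4.02 with offset 10. Slc43a1 and Slc43a3 move with the background step, and Slc1a3 moves with both that step and the choice of probe.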

How the data were processed

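Per the file headers, both arrays sat on 1 slide, were scanned once and were read with Agilent Feature Extraction 10.5.1.1. The authors deposited spot intensity (mean signal and local background) and Feature Extraction's log10 ratio of Cy5 over Cy3. They also deposited a log2 ratio table, which matched Feature Extraction's log2 of KO over WT on both arrays (r of 0.9999 and 0.9996 across probes, column medians of -0.018 and 0.037). Here R 4.3.3 and limma 3.58.1 were used for background correction of the intensities (normexp with an offset of 50), and each array was normalised by loess without control spots (1639 of 45018). Outlier-flagged spots (390 and 378) were dropped, spots of a probe averaged, the swapped array turned and both arrays averaged. Signals per RNA are log2 values after loess and scaling between arrays (Aquantile). The median Cy5 signal was 96.8 and 98.5 units, the Cy3 signal 60.1 and 58.2, and no spot was saturated.

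A gene stands for its brightest probe usable on both arrays. Calls need at least 2-fold, the threshold of the study's methods, or 1.5-fold on each array, and Feature Extraction's flag for well above background in at least a share of 0.5 of the spots. With 1 replicate per genotype no p-value is given, and the number of arrays limits the precision. A lower bound sets the brighter RNA against the higher of the dim signal and the lowest signal well above background. The offset pulls ratios of dim probes towards 0. Members are named or counted by family, in full where called, some are not reported here by name, and other genes come from lists of amino acid enzymes, amino acid sensing genes, other carriers and cell type markers. Members and lists were chosen with earlier results of these data known. Of 96 member probes, 79 matched an accession of the reference table, which gives 1 another symbol (Slc6a20 is Slc6a20b). The 2-fold call, without the background flag, was tried on simulated data in which all changed probes were bright and changed by more than 2-fold. Changes of dim probes, smaller changes and the 1.5-fold call were not simulated. Counts and plots were made in Python 3.11.15 (pandas 2.3.3, numpy 2.4.6, matplotlib 3.10.9).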

Additional observations from a re-analysis of the deposited data

How the results depend on the processing

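No paired analysis was possible because only 1 replicate of each genotype was labelled. With Feature Extraction's own ratio, and likewise with the deposited log2 table, 3 members were 2-fold higher (Slc1a6, Slc6a7 and Slc38a1), 6 were 1.5-fold higher and the median of members was -0.0045; 6 and 9 were lower, with Slc43a1 added at 2-fold. With median centring in place of loess, 3 were 2-fold lower (Slc6a9, Slc38a2 and Slc43a3), Slc1a5 and Slc7a5 also lost the 1.5-fold call, and the median was -0.012. With offset 10, 2 were 1.5-fold higher and the median was -0.10. Shares of all genes were counted under the main setting only. On the array with KO in Cy5 alone 3 were 1.5-fold higher and the median was -0.0094. Over genes above background in both RNAs the median was -0.13. With the 2 arrays taken as replicates, which compares these RNAs and not the genotypes, limma's test at an adjusted threshold of 0.05 gave 1 higher and 5 lower. The methods' t-test gave 1 and 4 unadjusted, without Slc1a3, and 0 and 0 after Benjamini-Hochberg adjustment. The mean ratio of no called member changed sign under any of these alternatives. With the probe of median ratio, however, Slc1a3 was at -0.10, and its single arrays, -0.31 and 0.12, differed in sign. Recomputed ratios of single members were set against the SD of a single array over all probes, 0.133. By this measure 262 values moved by less and 63 by more (50 of them larger in size). Among all these values, 14 had the opposite sign, in Slc6a16, Slc7a15, Slc36a1, Slc36a4 and Slc43a2. The cause of these moves was not tested. The 262 include ratios that could not move, because restricting to genes above background in both RNAs reuses the main ratios. Keeping outlier-flagged spots also left every listed member at its main ratio, but brightness was still ranked without those spots. A flagged probe, such as the brightest of Slc6a6, could therefore not take over, and this setting does not test the choice of probe. The deposited table repeats Feature Extraction's ratios, so its moves are counted again. Signal close to background limits what the arrays show of dim probes.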
